A study of Bos taurus with 20 samples.

Results

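Among 27607 gene IDs counted in cow endometrium, 27 combined a high level with a narrow range through the estrous cycle. They were selected on measured values: a CPM (a count divided by the library's total, times 1000000) of at least 100 in each of 20 libraries, a highest CPM at most 1.4 times the lowest, and a median day 0 CPM, plus 0.5, under 1000. The libraries came from biopsies of the uterine lining of virgin Holstein heifers whose cycles had been synchronized with a GnRH analog, a vaginal progesterone device and a prostaglandin F2α analog, cloprostenol. All animals received these agents, so no group represents an untreated cycle. Groups were day 0 (estrus) and days 5, 10, 14 and 18, with 4 libraries per day, 1 animal each, drawn at random for a day per the labels; the labels give a lower limit for age but no age per animal. The cells of a biopsy are a mixture, and for every value below, fewer cells of a type and less RNA per cell cannot be told apart.

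Genes with a near-constant transcript level serve as reference genes: in quantitative PCR, and in some uses of sequencing, other transcripts are expressed relative to them. The endometrium is a demanding tissue for such a choice, because estrogen before ovulation and progesterone from the corpus luteum afterwards change the glands, the stroma and their secretions within a single cycle. In sequencing, a CPM is a share of a library, so the share left for all other genes shrinks when a few secretory or structural transcripts take a larger part. Scaling factors such as TMM (trimmed mean of M values) and RLE (relative log expression, the median-of-ratios method) replace the library total with an estimate drawn from the bulk of the genes.

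Genes appear in the files under Ensembl IDs alone, and 0 of the 27607 could be matched to the 37063 entries of the cattle gene table used here. The lists of customary reference genes, housekeeping complexes and cell type markers could not be applied, the tissue label could not be checked against markers, and no sequence, position or function of a member is given. Only 4 members are named by ID: the pair with the narrowest range, and those with the largest positive and the largest negative difference in mean log2 CPM between the other days and day 0. The others are called by their rank, from 1 (narrowest range) to 27.

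Library totals ran from 21234000 to 26644679 counts. Day 10 replicates 1 and 3 and day 18 replicate 3 lay apart: their median correlation with the other libraries, across genes, was 0.882, 0.877 and 0.871, against 0.906 to 0.946 in the rest. Day 10 replicate 3 and day 18 replicate 3 were most like each other (r = 0.975 across genes, which are not independent replicates). Day 18 replicate 1 was most like day 0 replicate 2 (r = 0.956 across genes). With the 3 libraries that lay apart left out, 79 IDs met the rule, and without day 18 replicate 1, 35 did; fewer libraries can only narrow a range, so all 27 members are among them.

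The level and the range each removed most IDs. Of the 27607 IDs, 1006 reached 100 CPM in every library, and 939 of these also had a day 0 median under the limit; the members are 2.88% of the 939. The median ratio of highest to lowest CPM was 2.08 over the 939 and 1.36 over the members, and 103 of the 939 ranged over more than 4-fold, up to 19.4-fold. The limit on the day 0 level removed no candidate, since the narrowest range among the 67 IDs above it was 1.58-fold. The limit of 1.4 falls on a slope and not in a gap: the 5 members nearest to it had ratios of 1.391, 1.392, 1.394, 1.397 and 1.399, and the 5 nearest IDs outside had 1.401, 1.404, 1.408, 1.410 and 1.413. A limit of 1.3 keeps 4 IDs and a limit of 1.5 keeps 76.

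**Figure D1:**
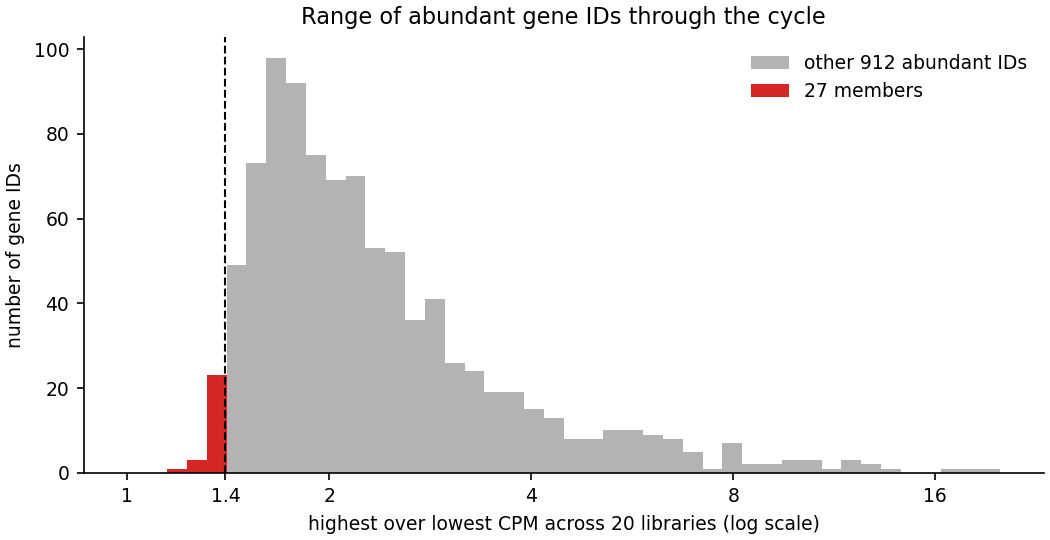
Number of gene IDs (vertical axis) by the ratio of highest to lowest CPM across 20 libraries (horizontal log axis), for 939 IDs of at least 100 CPM in every library and a day 0 median under the limit. The 27 members, in red, lie left of the dashed line at 1.4; the median of all 939 is 2.08.

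Each member had between 2151 and 24156 counts in a library, a level that the rule fixes from below. Counting alone would give a coefficient of variation of 0.707% to 1.98%, and the observed one over the 20 libraries was 5.74% to 11.7%, with a median of 8.72%. Median CPM per member ran from 109 to 858: 17 members lay under 200, 9 between 200 and 500, and 1 (rank 18) at 858, with libraries from 752 CPM in day 10 replicate 1 to 1038 CPM in day 14 replicate 4. Of the abundant IDs with a median under 200 CPM, 4.84% were members, against 1.90% from 200 to 500 CPM and 0.877% above (1 of 114). The floor of 100 CPM in every library limits how far an ID of low median can fall below it. These shares therefore reflect the rule as well as the genes. CPM is not divided by transcript length, so these levels do not order the genes by number of molecules.

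ENSBTAG00000018924 had the narrowest range of all, at 1.22-fold. Its CPM on day 0 was 142, 137, 149 and 139 in replicates 1 to 4, and on day 5 it was 142, 155, 153 and 163. Day 10 gave 150.03, 168, 154 and 162, day 14 gave 159, 156, 162 and 157, and day 18 gave 146, 165, 143 and 158. The 4 day 0 libraries sat at the low end, all under the day 10 and day 14 libraries. Replicate 3 of day 0 lay within the spread of days 5 and 18, and the other 3 lay below every library of those days. The day means ran from 142 ± 5.14 at estrus to 159 ± 2.52 at day 14 (SD, n = 4 each). With TMM factors its range was 1.20-fold, the narrowest of the 27 on that scale too, and its day 0 mean of 154 ± 4.01 CPM then lay above the 146 ± 6.94 of day 5 and the 148 ± 3.67 of day 14 (SD, n = 4 each).

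ENSBTAG00000001015 followed at 1.24-fold and had the smallest coefficient of variation of the 27, 5.74%. At estrus its CPM was 158, 163, 166 and 157, and day 5 gave 179, 155, 156 and 175. Day 10 gave 183, 168, 175 and 179, day 14 gave 174, 165, 179 and 173, and day 18 gave 191, 174, 168 and 171. Day 0 overlapped with days 5 and 14, and lay below all libraries of days 10 and 18. The lowest day mean was 161 ± 4.11 at estrus and the highest 176 ± 6.68 at day 10 (SD, n = 4 each). This narrow range did not carry over to the other scales. The ratio was 1.47 with TMM and 1.49 with RLE factors, where day 18 replicate 1 reached 216 TMM-scaled CPM against 147 in day 5 replicate 3.

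ENSBTAG00000004147 differed most upward from day 0, by 0.24 in mean log2 CPM to the mean of the other days. Its CPM on day 0 was 115, 116, 115 and 119, a spread of only 1.84 (SD, n = 4), and on day 14 it was 137, 145, 147 and 152. The other days reached from the day 0 level to the day 14 level, where day 5 gave 119, 148, 129 and 147, day 10 gave 133, 146, 118 and 155, and day 18 gave 118, 152, 114 and 152. The values near the day 0 level on the later days were those of day 5 replicate 1, day 10 replicate 3, day 18 replicate 1 and day 18 replicate 3, among them 2 of the libraries that lay apart and the one most like day 0. The part of these library differences in the day pattern of ENSBTAG00000004147 was not tested. With TMM factors the day means drew together, from 126 ± 3.31 at estrus to 138 ± 9.38 at day 10 (SD, n = 4 each), and the range over 20 libraries narrowed from 1.36-fold to 1.29-fold.

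ENSBTAG00000018271, of rank 10, ran the other way and was highest at estrus. Its CPM on day 0 was 199, 209, 205 and 208, and on day 5 it was 155, 161, 177 and 186, so that the lowest day 0 library lay above the highest day 5 library. Day 10 gave 174, 175, 179 and 199, day 14 gave 168, 165, 187 and 207, and day 18 gave 183, 173, 169 and 186. Day 0 thus overlapped with day 14, through its replicate 4, and not with days 5, 10 or 18. The range was 1.35-fold by CPM, and 1.56-fold with TMM and 1.58-fold with RLE factors.

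**Figure D2:**
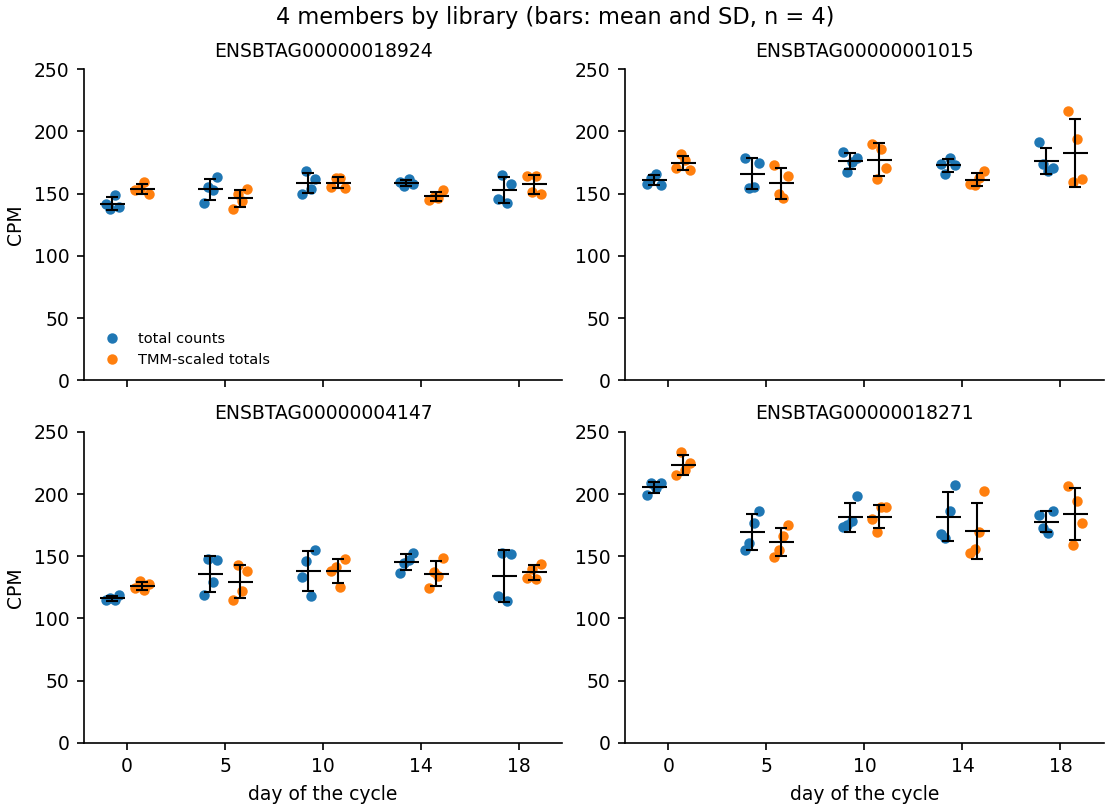
CPM (vertical axes, from 0) by day of the cycle for the 4 members named by ID, scaled by total counts (blue) or by TMM-scaled totals (orange); points are libraries, bars the mean and SD of 4. ENSBTAG00000018271 has a higher day 0 than day 5 on both scales, while for ENSBTAG00000018924 the order of days 0 and 14 (means of 142 and 159 CPM) turns over with TMM factors (154 and 148).

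ENSBTAG00000018271 was also the one member called between days 0 and 5, the only pair of days tested. The test was edgeR's quasi-likelihood F-test with TMM factors and Benjamini-Hochberg adjustment over 16947 IDs, and all 27 members passed its low-count filter. From day 0 to day 5 ENSBTAG00000018271 fell by 0.47 on the log2 scale (SE 0.11, edgeR adjusted p = 0.0197). Scaled by total counts alone, the scale on which the members were chosen, it fell by 0.28 and edgeR's adjusted p was 0.0990; over 28 alternatives edgeR, DESeq2 or limma gave an adjusted p from 5.95e-04 to 0.0990. Without day 0 replicate 2, day 0 replicate 4 or day 5 replicate 2 the edgeR adjusted p was 0.0612, 0.0551 or 0.0715.

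Among all tested IDs, 1453 (8.57%) were called between days 0 and 5, and 702 (4.14%) were called as lower on day 5, against 1 of 27 members. Among the 939 abundant IDs the share was 10.2%. Over all 5 days at once, 1911 tested IDs (11.3%) and 104 of the 939 (11.1%) were called by edgeR, and 0 members. The smallest edgeR adjusted p of a member over 5 days was 0.0543, again that of ENSBTAG00000018271, and 3 members had an unadjusted p under 0.05. Over 5 days DESeq2 called 7 members and 36.0% of the 939, and limma voom 0 and 9.37%. From day 0 to day 5 DESeq2 called 2 members and 16.7% of the 939, and limma voom 1 and 9.90%. Because the rule bounds each member's range over these same libraries, these counts describe the members and test nothing. With scaling by total counts, 79.0% of the IDs called between days 0 and 5 were higher on day 5, against 51.7% with TMM factors.

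In 5 members the 4 day 0 libraries did not overlap with the 4 day 5 libraries in CPM, against 30.7% of the 939 abundant IDs (288). Day 0 was higher in 1 of them, ENSBTAG00000018271 (10.0% of the 939), and lower in the other 4, of ranks 6, 8, 19 and 22 (20.7% of the 939). The member of rank 22 had the largest of these, from 407 CPM on day 0 to 487 on day 5 on average. With TMM factors 10 members did not overlap, against 31.9% of the 939, and with RLE factors 11, against 33.4%. In all of those members day 0 was the higher day, as it was in 24.1% of the 939 with TMM and 25.8% with RLE factors.

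By CPM the members as a group were lowest at estrus. Relative to each member's own mean over 20 libraries, the median of the 27 stood at −0.065 ± 0.031 at estrus on the log2 scale (SD, n = 4 libraries, as for the other days). Day 5 had −0.0043 ± 0.035, day 10 had −0.019 ± 0.053, day 14 had 0.058 ± 0.069 and day 18 had 0.025 ± 0.095. Single libraries moved the group by as much as the days did. The lowest was day 18 replicate 3, at −0.12, where 4 of 27 members exceeded their own mean, followed by day 0 replicate 1 at −0.11. The highest was day 14 replicate 4, at 0.14, where 23 of 27 did. Day 0 held the lowest mean of 14 members and day 14 the highest of 12; 19 members had a lower mean log2 CPM on day 0 than over the other days and 8 a higher one.

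**Figure D3:**
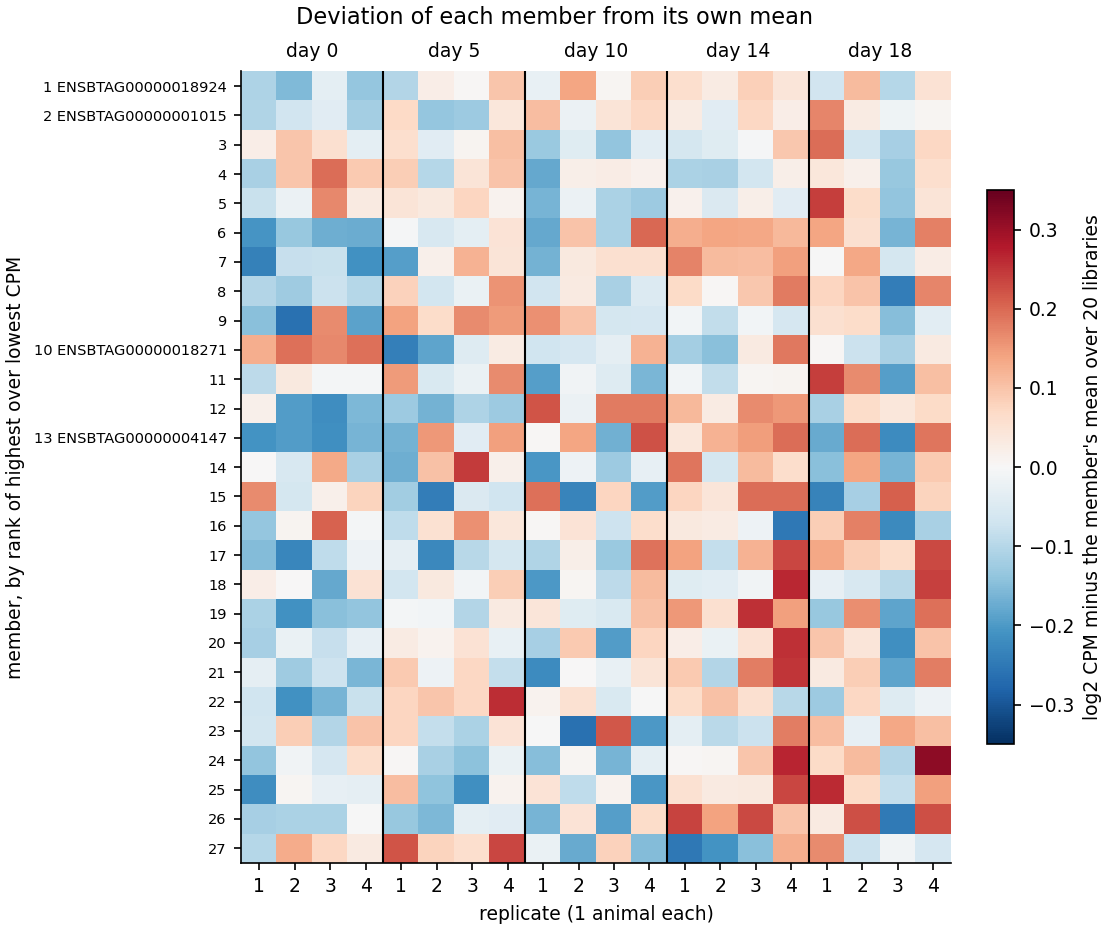
log2 CPM of each member (rows, ranked 1 to 27 by range) minus its own mean over 20 libraries (columns, 4 replicates for each of 5 days); red is above and blue below the mean. Many rows are blue on day 0 and in day 18 replicate 3 (median −0.12) and red in day 14 replicate 4 (median 0.14), while ENSBTAG00000018271 is red on day 0.

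This order of days held on the CPM scale and not on the others. With TMM factors the median of the members was 0.054 ± 0.041 at estrus and 0.070 ± 0.12 for day 18 (SD, n = 4 each, as for the other days). Day 5 had −0.073 ± 0.032, day 10 had −0.015 ± 0.032 and day 14 had −0.040 ± 0.098. By RLE factors day 18 (0.087 ± 0.13) also lay above estrus (0.056 ± 0.038). On the TMM scale 20 of 27 members had a higher mean on day 0 than over the other days, and on the RLE scale 21 did. The share of counts in the 50 highest IDs moved with this difference: it was 20.3% ± 0.579 at estrus and 11.4% ± 0.514 for day 14 (SD, n = 4 each). TMM factors were 0.921 ± 0.018 at estrus and 1.07 ± 0.036 for day 14. The part of this share in the order of days was not tested. In day 18 replicate 3 the 50 highest IDs held 22.7% and the TMM factor was 0.869, and in day 18 replicate 1 they were 19.5% and 0.886. The members' median by CPM nonetheless differed between these libraries. It was −0.12 in day 18 replicate 3 and 0.056 in day 18 replicate 1, where 18 of 27 members exceeded their own mean. From day 0 to day 5 the median log2 fold change of the members was 0.047 by total counts and −0.14 with TMM factors, and that of all tested IDs 0.21 and 0.017; relative to all tested IDs the members' median was −0.16 on both scales.

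**Figure D4:**
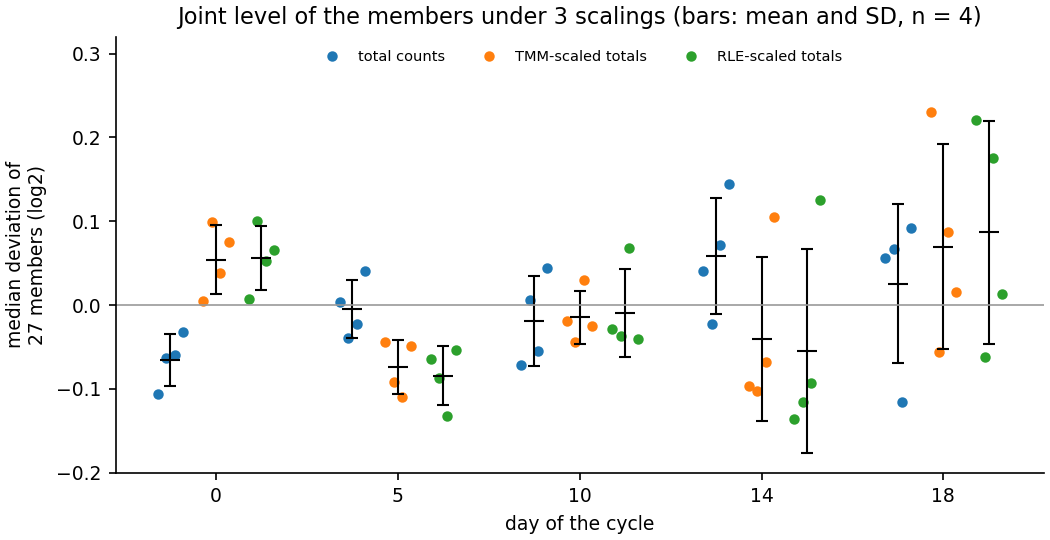
Median deviation of the 27 members from their own means (vertical axis, log2) by day of the cycle, for CPM from total counts, TMM-scaled and RLE-scaled totals; points are libraries, bars the mean and SD of 4. Day 0 lies below 0 in all 4 libraries by total counts and above 0 in all 4 with TMM or RLE factors.

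About as many members left the 1.4-fold limit on another scale as stayed within it. With TMM factors 13 of 27 exceeded 1.4, up to 1.67, and with RLE factors 15 did, up to 1.73. Applied anew, the rule found 45 IDs on the TMM scale, of which 14 were members (51.9% of the members, 31.1% of the 45), and 41 on the RLE scale, of which 12 were members (44.4% and 29.3%). The narrowest range of an abundant ID was 1.17-fold on either of these scales. A set of 12 members met the rule on all 3 scales, with a widest ratio per member of 1.29 to 1.397 and median CPM from 120 to 858. It held ENSBTAG00000018924 and ENSBTAG00000004147, but none of ranks 2 to 5. All 12 had a lower mean log2 CPM on day 0 than over the other days, as had 7 of the remaining 15. TMM factors on day 0 were 0.894 to 0.934, which raises every day 0 value. A choice over these scales therefore favours members low on day 0 by CPM, and the counts describe that choice.

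**Figure D5:**
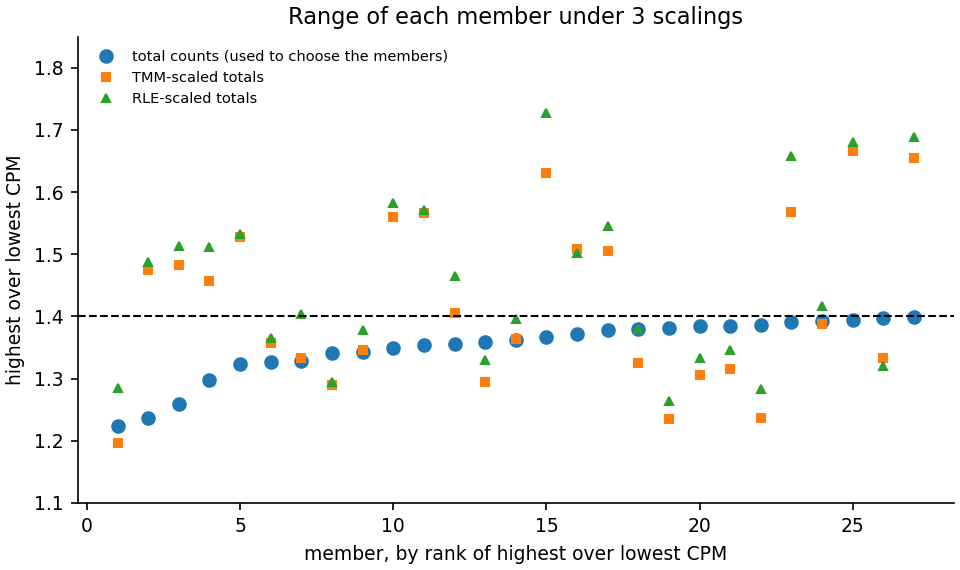
Ratio of highest to lowest CPM over 20 libraries (vertical axis) for each member by rank (horizontal axis), by total counts, TMM-scaled and RLE-scaled totals. The dashed line marks 1.4: 13 members lie above it with TMM factors and 15 with RLE factors, among them ranks 2 to 5 on both.

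Ratios between members do not depend on the scaling of a library. The rule holds each member's own range to 1.4-fold, so a ratio between members can vary at most by the product of their ranges. That bound is wider than 1.4-fold, so the widths of both are not comparable. The values below describe members chosen for narrow ranges and are no independent check of them. Over the 351 pairs of members the ratio of one to the other varied 1.48-fold in the median pair (1.19-fold to 1.87-fold), and 111 pairs stayed within 1.4-fold. The mean SD of a member's log2 ratio to the other 26, a usual measure of reference gene stability, ran from 0.125 for rank 8 to 0.21 for rank 15, with a median of 0.15. ENSBTAG00000018924 came next to rank 8 with 0.129, and ENSBTAG00000001015 had 0.14, ENSBTAG00000004147 0.17 and ENSBTAG00000018271 0.18.

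Members did not move as one. The correlation of log2 CPM over 20 libraries was positive in 254 of 351 pairs, with a median of 0.21, above 0.5 in 76 pairs and below −0.5 in 8. The closest pair was ENSBTAG00000018924 and ENSBTAG00000004147, at r = 0.86, and both had their lowest day mean at estrus. ENSBTAG00000018271 had no r above 0.5 with another member; its highest was 0.46 and its lowest −0.61, with rank 22. Median r with the other 26 members, against the other 1005 IDs of at least 100 CPM, was 0.35 against 0.19 for ENSBTAG00000018924. It was 0.19 against 0.060 for ENSBTAG00000001015, 0.43 against 0.21 for ENSBTAG00000004147 and 0.00093 against 0.012 for ENSBTAG00000018271. The most alike of the 1005 had r from 0.66 for ENSBTAG00000001015 to 0.91 for ENSBTAG00000004147. It was never a member, but only 26 of the 1005 are members, so this says little. All points share the 20 libraries and their totals, so these correlations are descriptions.

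By CPM the geometric mean of several members had a narrower range than any 1 of them. Over all 27 it ran from 189 CPM in day 18 replicate 3 to 220 CPM in day 14 replicate 4, a ratio of 1.16. Over ranks 1 to 3 alone it ran from 133 to 152 CPM, a ratio of 1.14. Both sets were chosen by their CPM ranges in these same libraries, so these ratios describe that choice. Singly, ranks 2 and 3 ranged 1.47-fold and 1.48-fold with TMM factors, and 1.49-fold and 1.51-fold with RLE factors. The geometric mean of ranks 1 to 3 was not computed on those scales. Over all 27 the mean CPM at estrus was 196 ± 3.38 (SD, n = 4, as for the other days), day 5 had 203 ± 5.44, day 10 had 199.9 ± 4.56, day 14 had 211 ± 7.64 and day 18 had 207 ± 12.4. The ratio over 20 libraries was 1.24 with TMM and 1.27 with RLE factors, where the narrowest single member had 1.20 and 1.26. Scaling the libraries by this geometric mean in place of TMM gave 1909 IDs called over 5 days, against 1911, and 1542 from day 0 to day 5, against 1453. The split of directions differed more: 71.0% of the 1542 were higher on day 5, against 51.7% with TMM factors.

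Leaving out the 4 libraries of a day can only keep or lengthen the list, so the numbers without a day are descriptions. Chosen without day 0, and so without the limit on the day 0 level, 55 IDs met the other limits, against 27 with day 0. The numbers were 41 without day 5, 40 without day 10, 36 without day 14 and 53 without day 18. Leaving out 1 library gave 27 to 35 IDs, the most without day 18 replicate 1 or 3.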

How the data were processed

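Messenger RNA of 20 biopsies was measured: per the labels' protocols, total RNA was extracted, poly(A) RNA captured and libraries made with a TruSeq stranded kit. The deposited values are raw counts per Ensembl gene ID, 1 file per library. FastQC, STAR and edgeR are listed, without versions, in the submitters' processing notes. For the build, annotation, counter and use of strand the entry is "not given in the sources used here", so overlapping, antisense and near-identical genes may share counts. The members and lists were chosen with earlier results of these data known. CPM is count over column total times 1000000; TMM and RLE factors were also used. The edgeR 4.0.16 quasi-likelihood test (R 4.3.3, robust, filterByExpr, 1 mean per day, adjusted p under 0.05) was fitted on all IDs and checked on simulated data. DESeq2 1.42.0 and limma 3.58.1 voom were alternatives, with other scalings, no filter, a replicate block and each library left out. SE is the log2 fold change over the square root of F. Because the files pair no names with IDs, the rule for named genes allowed 4 IDs: the pair with the smallest ratio and the largest positive and negative difference of the other days from day 0. Depth was 21234000 to 26644679 counts. Without molecular identifiers, counting errors cover counting only. Scaling by the members, leaving out 3 libraries or a whole day, and no day 0 limit were added after the data were seen. Python 3.11.15 and matplotlib 3.10.9 were used.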

Additional observations from a re-analysis of the deposited data

How the results depend on the processing

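The number of IDs meeting the rule was 45 with TMM factors and 41 with RLE factors. It was 4 with a limit of 1.3, 76 with a limit of 1.5, 60 from 50 CPM and 9 from 200 CPM. After the data were seen, it was 79 without the 3 libraries that lay apart, 41 without day 5 and 53 without day 18. Without day 0, and so without the limit on its level, it was 55. IDs called over 5 days numbered 5060 with DESeq2, 3556 without the 3 libraries, and 700 to 3977 with each library left out (fewest without day 0 replicate 2, most without day 18 replicate 1). From day 0 to day 5 these were 2569, 3069 and 434 (without day 5 replicate 2) to 2003 (without day 18 replicate 1). Members called over 5 days were 7 with DESeq2 and 0 to 1 with a library left out (1 without day 14 replicate 4, day 18 replicate 1 or day 18 replicate 2). Of the 939 abundant IDs, 338 were called over 5 days with DESeq2 and 28 to 262 with a library left out. From day 0 to day 5 the members called were 0 by total counts, 2 with DESeq2, 2 without the 3 libraries and 0 to 1 with a library left out. Of the 939, the numbers in these settings were 75, 157, 168 and 21 to 119. By total counts 1732 of all 16947 tested IDs were called, and without the 3 libraries 3069 of 17372. With a replicate block 2078 IDs were called over 5 days and 1777 from day 0 to day 5, and 0 and 1 members. Of 40 pairs of libraries with the same number, 12 had deviations correlated above 0.1. Their median r was 0.046 (−0.37 to 0.77), against −0.022 for pairs of other numbers. The median lay under the planned limit of 0.1, and the number was not taken as a pairing. Yet 11 of 20 libraries were on average most like their own number, so these values do not show that the numbers are unrelated. The members' median log2 level became 0.054 and 0.056 on day 0 (TMM, RLE), −0.073 and −0.084 on day 5, and −0.040 and −0.055 on day 14. Day 18 had 0.070 and 0.087, above day 0 on both scales. The cause was not tested. Each member had at least 2151 counts in every library, which the rule's floor nearly fixes; how depth bears on the counts of called IDs was not tested.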
